A study of Gallus gallus with 13 samples.

Results

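This account is about 6 secreted growth factors of the TGF-beta superfamily, BMP4, BMP6, GDF10, MSTN, TGFB2 and TGFB3, in chicken limb bud cultures that carried a HOXD13 or PITX1 virus. They were found in the expression table by gene symbol or by their chicken UniProt entry, in which MSTN is listed as GDF8, and each is 1 of 16737 Ensembl genes. Each gene was represented by its transcript of highest mean level, and all 6 were present.

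Ligands of this superfamily are made as dimeric precursors, cleaved, and bound by pairs of type I and type II receptor kinases on the cell surface, which phosphorylate SMAD proteins. BMPs signal mainly through SMAD1 and SMAD5, while the TGF-betas and myostatin (MSTN) signal mainly through SMAD2 and SMAD3. In the limb bud, BMPs act in patterning, in cell death between the digits and in cartilage growth, and TGF-betas act in the condensation of mesenchyme and in tendon and joint formation. Extracellular antagonists such as noggin (NOG) bind BMPs and keep them from their receptors.

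The cells were limb bud mesenchyme of stage HH24 chicken embryos, given an avian retrovirus before plating and grown for 9 days in micromass culture, a high-density droplet culture in which such cells make cartilage. The viruses were RCASBP(A) carrying 3xFLAG-tagged mouse Hoxd13 as wild type (HOXD13 wt) or with the Q317K or Q317R change in its homeodomain, the same vector carrying 3xFLAG-tagged chicken PITX1, and the empty RCASBP(A) vector. All 5 groups therefore carried the virus, and each gave 1 poly(A) RNA library, so no difference has a replicate check and none was tested. The labels do not say how many embryos were pooled or what share of the cells each virus reached, and limb buds also hold muscle precursors, vessels and blood cells. Levels are in RPKM, reads scaled to transcript length and to library size, a scale on which levels of different genes can be set side by side. Intervals in brackets are 95% exact intervals on the reads behind a value and cover counting error only.

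Library totals worked out from the table lay between 14069766 and 16793118 reads. The HOXD13 row stood at 36.8 to 63.4 RPKM in the HOXD13 libraries and at 13.1 to 16.6 RPKM in the PITX1 and empty vector libraries, and the PITX1 row stood at 10233 RPKM in the PITX1 library against 64.5 RPKM in the empty vector. The virus carries the mouse Hoxd13 sequence and the table the chicken gene, and RPKM values do not show which HOXD13 form a library carried. COL2A1, the collagen of cartilage, was at 1983 to 11296 RPKM in the factor libraries and 15370 RPKM in the empty vector, and 10 cartilage markers summed to 6256 RPKM with HOXD13 wt, 2718 with Q317K, 15306 with Q317R and 4871 with PITX1, against 20451 with the empty vector. The table lists no transcript at 0 in any library. The 5 erythroid markers found summed to 873 RPKM in the PITX1 library, and to 18.4 to 28.3 RPKM in the other libraries. The globins HBE and HBB made this difference, while HBA1, HBAD and TAL1 were at 2.76, 2.28 and 4.35 RPKM in PITX1, against 3.39, 3.17 and 5.85 RPKM in the empty vector.

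BMP4 (ENSGALG00000012429), which patterns the limb bud and drives cell death between the digits, was lowest in the empty vector. Its level was 60.8 RPKM with HOXD13 wt, 22.6 with Q317K, 76.2 with Q317R and 42.3 with PITX1, against 14.1 RPKM with the empty vector. The order was Q317R, HOXD13 wt, PITX1, Q317K and empty vector, and the counting intervals of the ratio excluded 1 between each pair of neighbours. BMP4 was 5.42-fold (4.76 to 6.19) higher in Q317R than in the empty vector, 4.33-fold (3.79 to 4.95) higher in HOXD13 wt and 3.01-fold (2.62 to 3.46) higher in PITX1. In Q317K it was 1.61-fold (1.38 to 1.88) higher. In these bulk samples, more cells that make a transcript and more of the transcript in each cell cannot be told apart.

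BMP6 (ENSGALG00000012787), a ligand known from maturing and hypertrophic chondrocytes, was high in HOXD13 wt and Q317R. Its level was 125 RPKM with HOXD13 wt, 14.7 with Q317K, 51.9 with Q317R and 6.59 with PITX1, against 13.7 RPKM with the empty vector. Q317K and the empty vector were the neighbours in this order that did not differ beyond counting error, with a ratio of 1.07 (0.908 to 1.27). The 9.14-fold (8.08 to 10.4) higher level in HOXD13 wt than in the empty vector was rank 8 from the top on log2(RPKM + 1), the scale of all such ranks here, among the 12840 genes that reached 5 RPKM in either library. In rank among all 16737 genes, BMP6 stood at 387 in the HOXD13 wt library and at 6672 in the empty vector. In Q317R BMP6 was 3.78-fold (3.32 to 4.32) higher than in the empty vector. For HOXD13 wt against the empty vector, 1 of 6 markers of hypertrophic cartilage and bone found was 2-fold or more higher and 4 lower. In Q317R 0 were higher and 4 lower by that measure. Over all genes compared, 4.90% were that far from the empty vector in HOXD13 wt and 3.97% in Q317R. The higher one was COL10A1, the collagen of hypertrophic cartilage, at 502 RPKM in HOXD13 wt against 67.7 RPKM in the empty vector, while IHH, IBSP, ALPL and PANX3 were lower in HOXD13 wt. IBSP, ALPL and PANX3 were highest in Q317K, where BMP6 was at its empty vector level. COL10A1 was lowest in Q317K, 4.53-fold below the empty vector, and SPP1 was 2.17-fold lower there. IHH was also lower, by less than 2-fold. By the 2-fold measure, 3 of the 6 markers were higher in Q317K than in the empty vector and 2 lower. In the PITX1 library BMP6 was 2.08-fold (1.70 to 2.56) lower than in the empty vector, so its highest and lowest levels, in HOXD13 wt and PITX1, were 19.0-fold (16.1 to 22.7) apart.

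GDF10 (ENSGALG00000005985), also known as BMP3B, is a divergent ligand related to BMP3, and among the 6 members it was 2-fold or more above the empty vector in Q317R and 2-fold or more below it in HOXD13 wt and PITX1. Its level was 8.77 RPKM with HOXD13 wt, 16.2 with Q317K, 68.0 with Q317R and 8.01 with PITX1, against 28.1 RPKM with the empty vector. Q317R thus lay above the empty vector and the other factors below it. The level was 2.42-fold (2.22 to 2.65) higher in Q317R, 3.20-fold (2.74 to 3.76) lower in HOXD13 wt and 3.51-fold (3.00 to 4.11) lower in PITX1. In Q317K it was 1.73-fold (1.52 to 1.97) lower. HOXD13 wt and PITX1 did not differ beyond counting error, with a ratio of 1.09 (0.900 to 1.33).

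MSTN (ENSGALG00000023961), the inhibitor of muscle growth, was the lowest of the 6 members in every library and was highest in Q317R. Its level was 4.45 RPKM with HOXD13 wt, 0.848 with Q317K, 14.8 with Q317R and 1.00 with PITX1, against 0.948 RPKM with the empty vector, on 78, 14, 292, 19 and 17 reads. Q317R was 15.6-fold (9.59 to 27.2) above the empty vector by RPKM, and HOXD13 wt was 4.69-fold (2.75 to 8.46) above it. On log2(RPKM + 1) the Q317R ratio was 3.02, rank 3 from the top among 12842 genes compared. MSTN entered that set only through its Q317R level, so the rank is a description only. The log2 ratio was 1.74 with a pseudocount of 5 RPKM and 3.83 with 0.1 RPKM, so its size rests on the pseudocount. In the transcript row used, PITX1 and the empty vector, and the empty vector and Q317K, did not differ beyond counting error. The 8 skeletal muscle markers found summed to 61.4 RPKM with HOXD13 wt, 131 with Q317K, 66.7 with Q317R and 95.3 with PITX1, against 93.9 RPKM with the empty vector. In Q317K ACTC1 stood at 73.5 RPKM against 35.8 RPKM in the empty vector, and TNNC2 at 24.7 against 16.3 RPKM. MYOD1 and MYBPC1 were slightly higher there, while MYF5, MYF6, MYOG and TNNT3 were lower. MYF5, MYOD1 and MYOG stood at 6.61, 5.86 and 5.32 RPKM in Q317R, against 8.49, 6.85 and 8.59 RPKM in the empty vector. These rested on 89, 109 and 96 reads in Q317R and 104, 116 and 141 reads in the empty vector. The part of muscle cell content in the MSTN levels was not tested.

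TGFB2 (ENSGALG00000009612), a TGF-beta made by mesenchyme, was at least 2-fold higher than in the empty vector in all 4 factor libraries, which held for no other member. Its level was 103 RPKM with HOXD13 wt, 147 with Q317K, 122 with Q317R and 151 with PITX1, against 50.3 RPKM with the empty vector. The ratio was 3.00 (2.79 to 3.23) in PITX1, 2.92 (2.71 to 3.15) in Q317K, 2.42 (2.24 to 2.61) in Q317R and 2.05 (1.90 to 2.22) in HOXD13 wt. The HOXD13 wt value was close to the 2-fold limit, with a log2 ratio of 1.02 that became 0.97 with a pseudocount of 5 RPKM. PITX1 and Q317K did not differ beyond counting error, with a ratio of 1.03 (0.973 to 1.08).

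TGFB3 (ENSGALG00000010346), its close relative, was the most abundant member in the empty vector and was low in HOXD13 wt and Q317R. Its level was 102 RPKM with HOXD13 wt, 232 with Q317K, 86.6 with Q317R and 253 with PITX1, against 276 RPKM with the empty vector. The level was 3.19-fold (2.99 to 3.40) lower in Q317R than in the empty vector and 2.71-fold (2.55 to 2.89) lower in HOXD13 wt. Q317K and PITX1 lay 1.19-fold and 1.09-fold below the empty vector. Summed cartilage markers, of which COL2A1 was the largest part, were lower in every factor library than in the empty vector. By the 2-fold measure, 8 of 10 were lower in HOXD13 wt, 10 in Q317K, 2 in Q317R and 10 in PITX1. None was higher by that measure. Over all genes compared, 4.90%, 5.01%, 3.97% and 4.77% were that far from the empty vector in the same order. COL9A1 stood at 805 RPKM in Q317R against 608 RPKM in the empty vector. The part of cell composition in the TGFB3 differences was not tested.

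**Figure D1:**
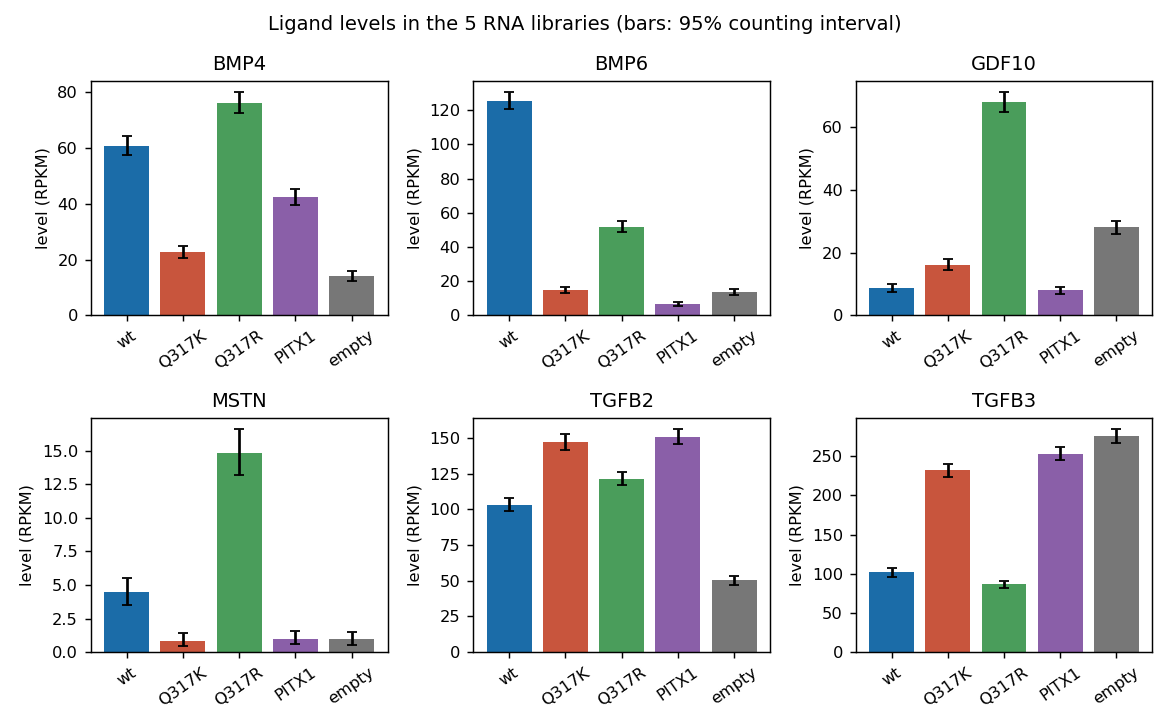
Level of each ligand in RPKM (vertical axis, from 0, scaled per panel) in the HOXD13 wt, Q317K, Q317R, PITX1 and empty vector libraries, 1 library each, with 95% counting intervals. BMP4 and BMP6 are high in HOXD13 wt and Q317R, and TGFB3 is low in the same libraries. In PITX1 BMP4 is also above the empty vector, at 42.3 against 14.1 RPKM, while BMP6 is below it. GDF10 and MSTN are highest in Q317R, and TGFB2 is lowest in the empty vector. MSTN in HOXD13 wt is at 4.45 RPKM, below the minimum of 5 RPKM used for calls.

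For counts, a gene was called where log2(RPKM + 1) put the libraries 2-fold or more apart, provided that either library reached 5 RPKM. Against the empty vector, HOXD13 wt had 3 members higher (BMP4, BMP6 and TGFB2) and 2 lower (GDF10 and TGFB3) of the 5 that passed the minimum, beside 4.90% of 12840 genes called in either direction, 2.28% higher and 2.62% lower. Q317K had 1 of 5 called, TGFB2, beside 5.01% of 12720 genes, 2.14% higher and 2.87% lower. Q317R had all 6 above the minimum and all called, 5 higher and TGFB3 lower, beside 3.97% of 12842 genes, 1.89% higher and 2.08% lower. PITX1 had BMP4 and TGFB2 higher and GDF10 lower of 5, beside 4.77% of 12698 genes, 1.97% higher and 2.80% lower. The 6 ligands were proposed with results of these libraries in view, and MSTN passed the minimum only through Q317R. Their counts are therefore not read against those shares, and their ranks among all genes compared are descriptions only. BMP6 in PITX1 had a log2 ratio of −0.95 and was not called, although its RPKM values were 2.08-fold apart. These comparisons share the empty vector library, so they are not independent of each other.

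The 5 members other than MSTN passed the minimum in every comparison. Their median log2 ratios to the empty vector were 1.02 in HOXD13 wt, 0.10 in Q317K, 1.26 in Q317R and −0.12 in PITX1. Those over all genes compared were −0.03, −0.01, 0.02 and −0.05 in the same order. The members were proposed with results of these libraries in view, so their medians are not read against those of all genes.

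**Figure D2:**
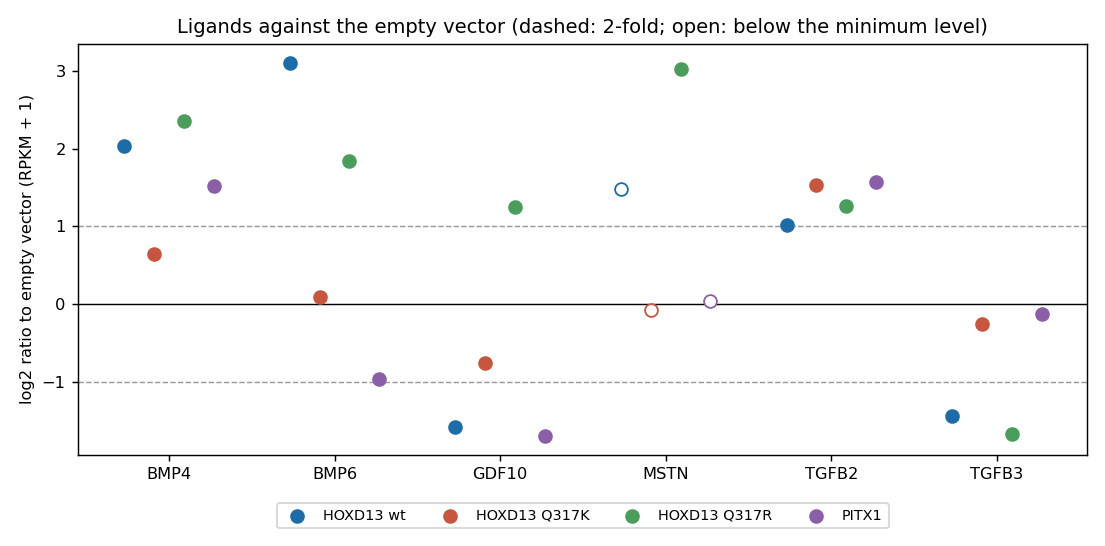
Log2 ratio of RPKM + 1 to the empty vector (vertical axis) for each ligand in the HOXD13 wt, Q317K, Q317R and PITX1 libraries, with dashed lines at 2-fold and open circles where both libraries were below 5 RPKM. All 4 TGFB2 points lie above the upper line, with HOXD13 wt only just above it at 1.02, and GDF10 lies above it in Q317R and below the lower line in HOXD13 wt and PITX1.

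Each mutant was also set against HOXD13 wt, from which its factor differs by design in 1 residue. The HOXD13 row stood at 63.4 RPKM in HOXD13 wt, 36.8 in Q317K and 53.7 in Q317R. Whether these cultures held equal amounts of the factor was not tested. In Q317K both BMPs were lower than in HOXD13 wt and TGFB3 was higher. BMP6 stood at 14.7 RPKM in Q317K against 125 RPKM in HOXD13 wt, 8.51-fold (7.52 to 9.66) lower, which on log2(RPKM + 1) was rank 20 from the bottom among 12512 genes compared. BMP4 was 2.69-fold (2.40 to 3.02) lower in Q317K than in HOXD13 wt, and TGFB3 was 2.28-fold (2.14 to 2.44) higher. MSTN, under the minimum in both libraries, was 5.25-fold (2.95 to 10.0) lower in Q317K than in HOXD13 wt. TGFB2 and GDF10 were 1.42-fold and 1.85-fold higher and were not called. In this comparison 1 member was higher and 2 were lower of 5, beside 6.28% of all genes called, 3.01% higher and 3.28% lower.

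Q317R was close to HOXD13 wt for BMP4, TGFB2 and TGFB3 and apart from it for the other members. GDF10 stood at 68.0 RPKM in Q317R against 8.77 RPKM in HOXD13 wt, 7.76-fold (6.73 to 8.99) higher, which on log2(RPKM + 1) was rank 4 from the top among 12646 genes compared. MSTN was 3.33-fold (2.58 to 4.33) higher in Q317R than in HOXD13 wt, and BMP6 was 2.42-fold (2.25 to 2.59) lower. BMP4 was 1.25-fold (1.16 to 1.35) higher, TGFB2 1.18-fold (1.11 to 1.25) higher and TGFB3 1.17-fold (1.09 to 1.27) lower in Q317R, differences beyond counting error but under 2-fold. Of the 6 members 2 were called higher and 1 lower, beside 3.13% of all genes, 1.49% higher and 1.64% lower. Both mutant comparisons share the HOXD13 wt library.

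Q317K was also set against PITX1, whose homeodomain carries a lysine at the position that Q317K changes. Of 5 members above the minimum 1 was called, beside 3.58% of 12242 genes, 1.92% higher and 1.66% lower: BMP6, at 14.7 RPKM in Q317K against 6.59 RPKM in PITX1, or 2.23-fold (1.82 to 2.75) higher. This was a log2 ratio of 1.05 that became 0.77 with a pseudocount of 5 RPKM. GDF10 was 2.03-fold (1.71 to 2.41) higher by RPKM, with a log2 ratio of 0.94 on the scale used for calls. BMP4 was 1.87-fold (1.66 to 2.11) lower in Q317K than in PITX1. TGFB2 and TGFB3 were at 0.974 (0.924 to 1.03) and 0.916 (0.872 to 0.962) of their PITX1 levels.

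Over the 6 members together, the root mean square log2 difference between 2 libraries was smallest for Q317K and PITX1, at 0.68. Q317K and the empty vector followed at 0.75, and the largest of the 10 pairs was Q317R and PITX1 at 2.18. Over the 13201 genes that reached 5 RPKM in 1 or more libraries, the closest pair was Q317R and HOXD13 wt at 0.39, with Q317K and PITX1 at 0.42. The order depended on the measure. By the median absolute log2 difference over the members, Q317K was nearer to the empty vector (0.45) than to PITX1 (0.50). Over all genes that median was 0.168 for Q317R and HOXD13 wt and 0.169 for Q317K and PITX1. For the ligands Q317R and HOXD13 wt were 1.42 apart by root mean square, through GDF10, MSTN and BMP6. These distances describe 1 library of each kind.

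In the transcript rows used, the sum of the 6 ligands varied little while its make-up did. It was 404 RPKM with HOXD13 wt, 433 with Q317K, 419 with Q317R and 462 with PITX1, against 383 RPKM with the empty vector. BMP4 and BMP6 made up 46.1% of it in HOXD13 wt, 8.62% in Q317K, 30.6% in Q317R and 10.6% in PITX1, against 7.25% in the empty vector. TGFB2 and TGFB3 made up 50.7%, 87.4%, 49.7% and 87.5% in those factor libraries, against 85.2% in the empty vector. Between these TGF-betas the balance also differed: TGFB3 was at 0.985 of the TGFB2 level in HOXD13 wt, 1.58 in Q317K, 0.712 in Q317R and 1.68 in PITX1, against 5.48 in the empty vector. BMP6 was at 2.06 of the BMP4 level in HOXD13 wt, 0.652 in Q317K, 0.681 in Q317R and 0.156 in PITX1, against 0.976 in the empty vector. These sums depend on the rows used. The TGFB3 row of 1453 bases stood at 201 RPKM in the empty vector, where the row used stood at 276 RPKM. Sums over other rows were not made.

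**Figure D3:**
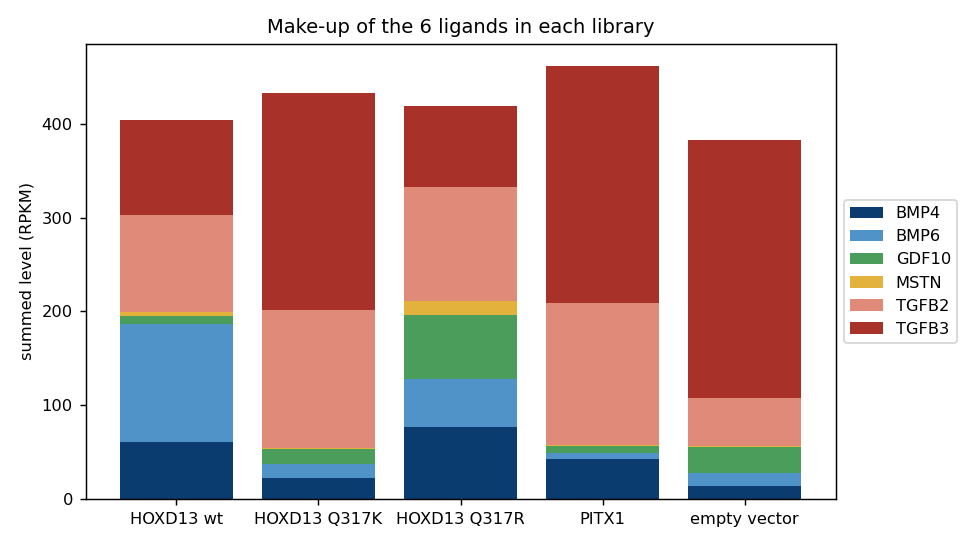
Stacked levels of the 6 ligands in RPKM (vertical axis) in each library. The column heights run from 383 to 462 RPKM, and the blue BMP4 and BMP6 segments take 46.1% in HOXD13 wt and 30.6% in Q317R.

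Members with several transcript rows gave a check within each gene, although rows of overlapping transcripts share reads. BMP4, TGFB2, TGFB3 and MSTN had 2, 2, 3 and 4 rows, and BMP6 and GDF10 had 1 each. The other BMP4 row had ratios of 3.60 in HOXD13 wt, 1.44 in Q317K, 4.49 in Q317R and 2.34 in PITX1 to the empty vector, each somewhat smaller than in the row used. The longer TGFB2 row had larger ratios of 2.41, 3.23, 2.63 and 3.35 in the same order. For TGFB3 the row of 1453 bases had ratios of 0.429 in HOXD13 wt and 0.395 in Q317R, where the row used had lower ratios of 0.369 and 0.314. In PITX1 its ratio was 1.06, where the row used had 0.918. The TGFB3 row of 123 bases rested on 1 read in HOXD13 wt, 14 in Q317K, 10 in Q317R and 20 in PITX1, against 15 in the empty vector. MSTN rows ranged from 9.75 to 37.9 in the ratio of Q317R to the empty vector, whose reads numbered 3 to 17 in these rows. The direction in Q317R was thus common to the rows and the size was not. In Q317K the MSTN row of 1128 bases had a ratio of 2.90 (1.08 to 9.03), on 16 reads against 6, where the row used had 0.894.

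**Figure D4:**
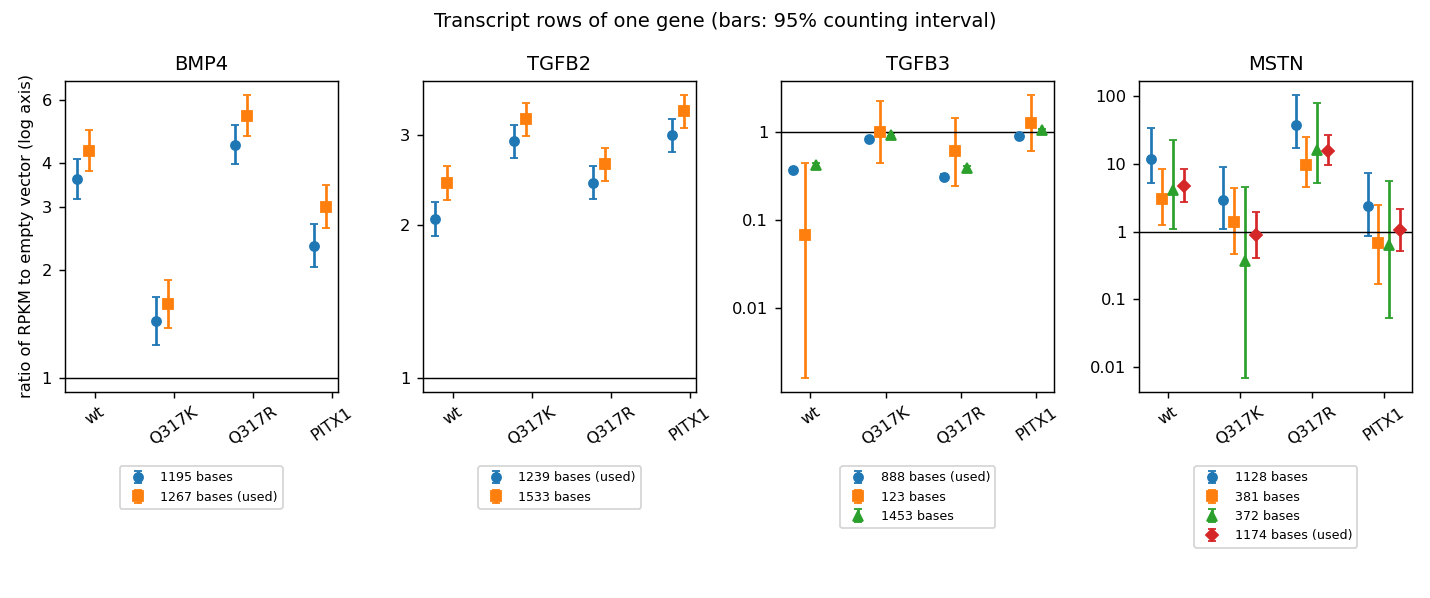
Ratio of RPKM to the empty vector (vertical axis, log scale) for each deposited transcript row of BMP4, TGFB2, TGFB3 and MSTN in the 4 factor libraries, with 95% counting intervals. Rows of one gene keep the order of the factors except where they rest on few reads, as in the MSTN rows and the TGFB3 row of 123 bases.

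The genes whose profiles were most like the members were found by the root mean square difference of centred log2(RPKM + 1) over the 5 libraries, among 7008 named genes with a mean RPKM of 5 or more. For BMP4 they were C6orf161 (0.32) and the retinoic acid degrading enzyme CYP26B1 (0.34), and for BMP6 they were TMTC1 (0.42) and JMJD7-PLA2G4B (0.52). SUSD5 (0.25) and COL4A2 (0.43), a basement membrane collagen, were nearest to GDF10. MATN4, a matrilin of the extracellular matrix, and the nucleoside transporter SLC28A2 were nearest to MSTN, at 0.32 and 0.33. As MSTN was at 0.848 RPKM in Q317K, 1.00 in PITX1 and 0.948 in the empty vector, its distances rest in part on the pseudocount. The level of MATN4 was 1586 RPKM with HOXD13 wt, 488 with Q317K, 2489 with Q317R and 542 with PITX1, against 531 RPKM with the empty vector. HRSP12 (0.10) and AHCY (0.17) were nearest to TGFB2, and CISH (0.16), a feedback inhibitor of cytokine receptors, and PCOLCE2 (0.20), which enhances procollagen processing, to TGFB3. Between members the nearest pair was BMP4 and MSTN at 0.72, with BMP4 and TGFB2 next at 0.74, and the farthest BMP6 and TGFB3 at 2.11.

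Other genes of the pathway were taken from 5 lists of 101 genes, of which 45 could be matched by name and 39 to 43 passed the minimum in a comparison. Against the empty vector 6 were higher and 2 lower of 42 in HOXD13 wt, 1 higher and 5 lower of 41 in Q317K, 4 higher and 4 lower of 41 in Q317R, and 4 higher and 4 lower of 40 in PITX1. Their median log2 ratios were 0.03, −0.16, −0.08 and −0.11 in that order. The shares called were 19.0%, 14.6%, 19.5% and 20%, beside 4.90%, 5.01%, 3.97% and 4.77% of all genes compared. The lists were chosen with earlier results of these data known, so their counts are not read against the all-gene shares. The same all-gene shares stand beside the counts of each list below.

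Of 23 other ligands sought, 5 were matched by name. None of these 5 was 2-fold higher in any factor library than in the empty vector. BMP2, close in sequence to BMP4, stood at 13.0 RPKM with HOXD13 wt, 22.2 with Q317K, 22.1 with Q317R and 18.7 with PITX1, against 27.9 RPKM with the empty vector. It was 2.15-fold lower in HOXD13 wt, where BMP4 was 4.33-fold higher. INHBA, the activin A subunit, was 2.55-fold lower in Q317K and 2.18-fold lower in PITX1, and GDF7 was 2.18-fold lower in Q317K. In the empty vector BMP4 and BMP6 ranked 8 and 9 by level among the 11 ligands matched, below BMP2, INHBA and GDF7. In HOXD13 wt BMP6 ranked 1 and BMP4 ranked 4 among the same 11. Ligands that could not be matched have no place in these ranks.

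Of 10 receptors and co-receptors found, 9 passed the minimum in HOXD13 wt and 8 in each other factor library. Against the empty vector 2 were called, both in HOXD13 wt. BMPR1B, named here beyond the naming rule, was 2.31-fold lower in Q317K and 2.15-fold lower in PITX1 by RPKM. Its log2 ratios on the scale used for calls were −0.98 and −0.90, so it was not called. RGMA, a BMP co-receptor, stood at 125 RPKM with HOXD13 wt, 23.4 with Q317K, 28.1 with Q317R and 21.1 with PITX1, against 34.1 RPKM with the empty vector. ACVR2B, a type II receptor for activins and myostatin, stood at 15.1 RPKM with HOXD13 wt, 3.91 with Q317K, 3.87 with Q317R and 3.25 with PITX1, against 4.65 RPKM with the empty vector. HOXD13 wt was therefore the library in which both stood highest, 3.66-fold (3.37 to 3.98) for RGMA and 3.25-fold (2.61 to 4.09) for ACVR2B above the empty vector. Among 7 SMADs and intracellular regulators, the call against the empty vector was BAMBI, a decoy receptor without kinase activity, at 61.8 RPKM in Q317R against 128 RPKM in the empty vector. BAMBI was highest in Q317K, at 231 RPKM.

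Target genes were called in both directions. Of 5 measured, Q317R had ID2 and ATOH8 higher and SNAI2 and DLX5 lower. PITX1 had ATOH8 and SNAI2 higher and DLX5 lower. MSX2, named here beyond the naming rule, was not called. It stood at 20.2 RPKM with HOXD13 wt, 20.7 with Q317K, 14.1 with Q317R and 13.8 with PITX1, against 19.4 RPKM with the empty vector. The level of ID2 was 33.0 RPKM with HOXD13 wt, 40.6 with Q317K, 96.7 with Q317R and 48.6 with PITX1, against 45.7 RPKM with the empty vector. In HOXD13 wt ID2 was 1.39-fold lower and ATOH8 1.69-fold (1.07 to 2.72) higher than in the empty vector, and neither was called. Whether target genes followed BMP4 and BMP6 was not tested. The level of ATOH8 was 15.8 RPKM with HOXD13 wt, 19.0 with Q317K, 25.4 with Q317R and 43.0 with PITX1, against 9.31 RPKM with the empty vector. SNAI2, a factor of mesenchymal cells that TGF-beta induces, stood at 147 RPKM in PITX1 against 69.6 RPKM in the empty vector, and at 28.1 RPKM in Q317R.

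Among antagonists and processing factors, 4 were higher and 1 lower of 16 in HOXD13 wt, 1 higher and 3 lower of 16 in Q317K, 2 higher and 1 lower of 16 in Q317R, and 2 higher and 2 lower of 15 in PITX1. CHRDL2, a chordin-like protein that binds BMPs, stood at 576 RPKM with HOXD13 wt, 7.47 with Q317K, 89.7 with Q317R and 9.88 with PITX1, against 62.5 RPKM with the empty vector, and NOG, named here beyond the naming rule, at 92.1, 12.3, 53.3 and 15.1 RPKM, against 36.7 RPKM. Both were thus highest in HOXD13 wt, next in Q317R, and lower in Q317K and PITX1 than in the empty vector. BMP6 was also highest in HOXD13 wt, next in Q317R, and lower in PITX1 than in the empty vector. In Q317K BMP6 was at 1.07 (0.908 to 1.27) of its empty vector level, where CHRDL2 was 8.37-fold and NOG 2.99-fold lower. CHRDL1, a paralogue of CHRDL2, was 3.74-fold (3.54 to 3.94) higher in Q317R and 2.07-fold (1.95 to 2.19) higher in HOXD13 wt. WFIKKN1, which binds myostatin in mammals, stood at 86.4 RPKM in PITX1 and at 11.1 to 14.4 RPKM in the HOXD13 libraries, against 19.5 RPKM in the empty vector. LTBP2, of the latent TGF-beta binding protein family, was 2.58-fold (2.49 to 2.68) higher in PITX1 and 3.65-fold lower in Q317R, and 2.25-fold lower in HOXD13 wt. The order of CHRDL2 and NOG was thus not common to the list, as CHRDL1 was highest in Q317R, and WFIKKN1 and LTBP2 in PITX1.

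**Figure D5:**
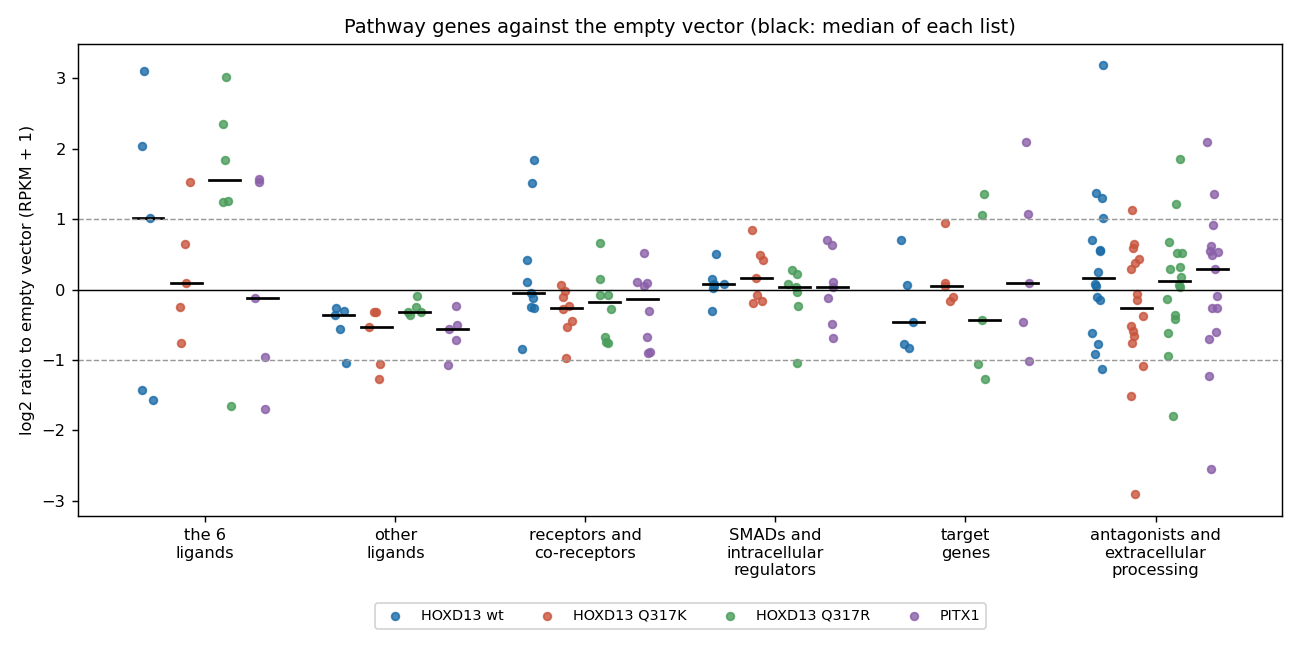
Log2 ratio of RPKM + 1 to the empty vector (vertical axis) for the 6 ligands and the genes of 5 pathway lists, 1 point a gene and colour by factor library, with medians of the genes above the minimum in black and dashed lines at 2-fold. MSTN enters the ligands only in Q317R. Receptors, SMADs and regulators lie mostly between the lines, and CHRDL2 is the highest point of its list in HOXD13 wt and the lowest in Q317K and PITX1.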

How the data were processed

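Expression was deposited as RPKM for 21998 Ensembl transcripts in 5 libraries of 115 bp single reads, computed by the authors per the file headers; the sources used here do not name the counting tool, genome build or annotation. Samples were grouped by title. Ratios between columns gave whole reads, transcript lengths and library totals. All rows came out whole within 0.001 reads, but lengths were scaled to whole numbers on the way, so this holds largely by construction. In 3000 simulated rows true reads and lengths came back in 98.0%. Library totals lay between 14069766 and 16793118 reads. Ratios used log2(RPKM + 1), a scale that understates differences of low genes, a minimum of 5 RPKM in 1 or both libraries and a 2-fold call, and were checked on simulated data. Printed folds compare RPKM with no pseudocount and carry 95% Clopper-Pearson intervals; levels have exact Poisson intervals in the plots. No p-values were computed. The members, lists and the naming rule (all members, up to 4 genes a pathway list by size of ratio, 2 nearest profiles each) were chosen with earlier results of these data known. NOG, MSX2, BMPR1B and the cell type markers are named outside that rule. For 28 UniProt entries the symbol was written by hand. Alternatives were other pseudocounts, minimums, scalings, transcripts and folds. Peak lists, made with MACS2 per the submitters' processing notes, and sequences were not used here, since no genome of the peaks' build and no sequence table were at hand. Software was pandas 2.3.3, numpy 2.4.6, scipy 1.17.1 and matplotlib 3.10.9 under Python 3.11.15.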

Additional observations from a re-analysis of the deposited data

Results flagged for a closer look

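GDF10 was called in opposite directions in different factor libraries against the same empty vector library: its log2 ratio was 1.25 in Q317R, −1.57 in HOXD13 wt and −1.69 in PITX1. With 1 library a group the difference between these effects was not tested.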

How the results depend on the processing

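Each group had 1 library, so variation between cultures is not known. Counting error is known, and the choice of transcript row is a further limit that the intervals do not cover. With the longest transcript, 32 of 42 member ratios stayed within their counting interval, and the largest change was 0.33 on the log2 scale. No paired analysis was possible because each group had 1 library. Of the 42 member ratios recomputed under other pseudocounts, scalings and transcripts, 1 changed sign: TGFB3 in PITX1 against the empty vector, not called, was −0.12 and became 0.08 with the longest transcript. With median-of-ratios scaling log2 ratios of PITX1 to the empty vector shifted by 0.10, and no member call changed. TGFB2 in HOXD13 wt lost its call with a pseudocount of 5 RPKM (0.97), as did BMP6 in Q317K against PITX1 (0.77). With a pseudocount of 0.1 RPKM, BMP6 in PITX1 against the empty vector (−1.05) and GDF10 in Q317K against PITX1 (1.01) were called. With a minimum of 1 RPKM or none MSTN was also called, higher in HOXD13 wt than in the empty vector and lower in Q317K than in HOXD13 wt, which made 6 and 4 members called. Members called in Q317K against PITX1 numbered 2 with a pseudocount of 0.1 RPKM, 0 with 5 RPKM and 3 at a fold of 1.5, and in Q317K against the empty vector 3 at a fold of 1.5. All genes called numbered, with a pseudocount of 5 RPKM, 418 (HOXD13 wt), 392 (Q317K), 322 (Q317R) and 383 (PITX1) against the empty vector, 510 in Q317K and 253 in Q317R against HOXD13 wt, and 261 in Q317K against PITX1, and at a fold of 1.5 they numbered 2288, 2437, 1838, 2184, 2011, 1171 and 1229 in the same order. As reported they were 629, 637, 510, 606, 786, 396 and 438.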
